A study of Homo sapiens with 15 samples.

Results

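Polysorbate 20 (PS20) and polysorbate 80 (PS80) share a polyoxyethylene sorbitan head and differ in the fatty acid attached to it, lauric acid in PS20 and oleic acid in PS80. The genes that both surfactants moved by a like amount are described here for Caco-2, a cell line from a human colon tumour whose monolayers resemble small-intestinal enterocytes. All 15 libraries of the series entered: 5 of cells without treatment (the unexposed control), 5 of cells given PS20 and 5 of cells given PS80, each surfactant at 0.05% for 24 h. The response to both was 1 contrast, the mean of the PS20 and PS80 groups (10 libraries) minus the control group (5 libraries), on the log2 scale. A gene was said to have changed to a similar size when it passed the test in that contrast and, in the same direction, in each surfactant's own contrast, and when the 95% interval of PS80 minus PS20 lay within 50% of the mean change on either side of 0. The smaller of the 2 log2 changes of such a gene is then at least 0.6 of the larger. This rule gave 363 genes of the 12769 tested (2.84%), 221 higher and 142 lower than control.

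The monolayers come from 1 tumour cell line, and nothing in the labels said that replicates were separate cultures, so p-values measure the spread between these libraries only. Both single contrasts use the same 5 control libraries. PS80 replicates 1, 3, 4 and 5 were counted with another featureCounts version than the other 11 libraries, so there the version and PS80 cannot be told apart. Total counts per library ran from 4183096 to 13616301 without treatment. They ran from 6749086 to 17251564 under PS20 and from 6769409 to 42271053 under PS80. Of 9 epithelial markers, 8 were detected in every library and KRT20 was at 0 throughout. Their summed level was 9510 to 11100 CPM in control (CPM being each gene's counts per 1000000 counts of its library), while PS20 libraries held 8050 to 8700 CPM and PS80 libraries 9810 to 10300 CPM. KRT8, at 3550 to 4910 CPM in control, made the largest part of that sum. In the mean of both surfactants KRT8 (-0.45), KRT18 (-0.32) and VIL1 (-0.19) were lower. CDX2 (0.38) and FABP1 (0.23) were higher, and CDH1 (0.06), EPCAM (0.02) and HNF4A (-0.05) did not pass the test. The summed fibroblast list lay at 138 to 160 CPM in control, 129 to 150 in PS20 and 121 to 171 in PS80 libraries. Mitochondrially encoded RNA took 1.497% to 1.914%, 2.03% to 2.58% and 1.45% to 2.97% of counts in the same order. The 4 endothelial markers summed to 4.3 to 11.8, 10.1 to 13.8 and 11.2 to 16.2 CPM, nearly all of it PECAM1. CDH5 and KDR reached at most 0.202 CPM. In the fibroblast list DCN reached at most 0.0242 CPM, but COL1A1, COL3A1, PDGFRB and LUM were detected in every library. COL1A1 made most of that sum, and PDGFRB held 23.2 to 39.1 CPM in control and 12.2 to 19.2 CPM in exposed libraries. The blood markers summed to 3.37 to 6.92, 2.66 to 4.72 and 4.11 to 6.12 CPM, mostly LYZ. The part of these values in the results was not tested. Fewer cells of a type and less RNA per cell cannot be told apart in these bulk libraries.

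Enterocytes meet dietary chemicals, and several systems known from this tissue answer such contact. The aryl hydrocarbon receptor, bound by planar ligands, enters the nucleus and drives CYP1A1 through DNA elements with the core GCGTG. Growth factor signalling through the EGF receptor and ERK switches on early genes such as MYC together with feedback inhibitors of the Sprouty and Spred families. When amino acids or protein folding fail, the integrated stress response raises ATF4, which drives amino acid transporters and tRNA synthetases through a composite element that can read TGATGNAA.

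The regions before the start of 3 members whose roles belong to these systems are shown, since each holds at least 1 of the motifs searched. They are the 250 bases before the RefSeq gene start in GRCh38.p14, written 5′ to 3′ along the gene's strand, with each match on either strand to 1 of 4 motifs in capitals. The motifs were GCGTG of the aryl hydrocarbon receptor, TGATGNAA of ATF4 with its C/EBP partners, the E-box CACGTG bound by MYC and its relatives, and TGANTCA of the JUN and FOS dimers.
CYP1A1 chr15:74725529-74725778: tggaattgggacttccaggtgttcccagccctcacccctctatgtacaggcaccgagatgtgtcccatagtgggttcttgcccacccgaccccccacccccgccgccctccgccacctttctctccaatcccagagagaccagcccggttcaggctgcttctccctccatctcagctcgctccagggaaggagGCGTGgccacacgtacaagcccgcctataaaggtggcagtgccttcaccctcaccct
IARS1 chr9:92293698-92293947: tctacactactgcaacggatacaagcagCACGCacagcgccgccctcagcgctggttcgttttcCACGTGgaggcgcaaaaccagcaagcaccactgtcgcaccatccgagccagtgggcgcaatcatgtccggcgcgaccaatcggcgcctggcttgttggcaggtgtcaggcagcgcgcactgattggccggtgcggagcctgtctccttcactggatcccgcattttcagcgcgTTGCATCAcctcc
AREG chr4:74444886-74445135: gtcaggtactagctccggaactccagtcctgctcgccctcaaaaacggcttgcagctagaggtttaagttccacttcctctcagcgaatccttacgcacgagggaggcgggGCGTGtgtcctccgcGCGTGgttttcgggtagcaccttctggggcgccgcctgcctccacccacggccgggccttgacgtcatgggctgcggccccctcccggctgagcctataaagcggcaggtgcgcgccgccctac
The CYP1A1 window, on the minus strand, holds GCGTG once, with its first base 57 bases before the start. The IARS1 window, also on the minus strand, holds TTGCATCA, the reverse complement of a TGATGNAA match, 13 bases before the start, a CACGTG, and GCGTG once on the other strand, where it reads CACGC. The AREG window, on the plus strand, holds GCGTG at 2 places.

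Windows of 300 bases (250 before and 50 after the start) were found for 180 of the 221 higher genes and 117 of the 142 lower genes of similar size. GCGTG stood in 53.9% of the higher, 44.4% of the lower and 51% of the windows of all tested genes with one. TGATGNAA stood in 6 of the higher windows (3.33%), 1 of the lower (0.855%) and 1.64% of all tested. CACGTG stood in 10.6%, 11.1% and 10.1%, and TGANTCA in 4.44%, 5.13% and 4.23%. CACGTG and GCGTG overlap where the letters run on, and CACGTG reads the same on both strands. Among all 35116 windows of the table the shares were 36.5% for GCGTG, 3.62% for TGATGNAA, 7.26% for CACGTG and 7.71% for TGANTCA. GC content of the windows was 70.8% (median) for higher genes, 63.7% for lower genes and 65.7% for all tested, but only 77.5% of all tested genes had a window, so a comparison of shares or GC content with all tested genes is void. These are counts of letters and say nothing about binding.

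Both surfactants together called 5613 of 12769 genes (44%) at an adjusted p of at most 0.05 by edgeR's quasi-likelihood test, 2815 higher (22%) and 2798 lower (21.9%). Of these, 253 rose and 136 fell by more than 2-fold. PS20 minus control called 6163 genes (48.3%), PS80 minus control 4266 (33.4%) and PS80 minus PS20 4527 (35.5%). Of the genes called in the mean, 2844 were called in the same direction by each surfactant alone, 1954 by PS20 only and 720 by PS80 only. The similar-size genes were 6.47% of the called genes. A larger change with PS20, shown by the direct comparison, was found for 947 higher and 1054 lower genes, and a larger change with PS80 for 262 and 189. For the other 1385 higher and 1413 lower genes the data did not resolve which surfactant moved them more. There were 104 genes that the surfactants moved in opposite directions, each past the test.

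**Figure D1:**
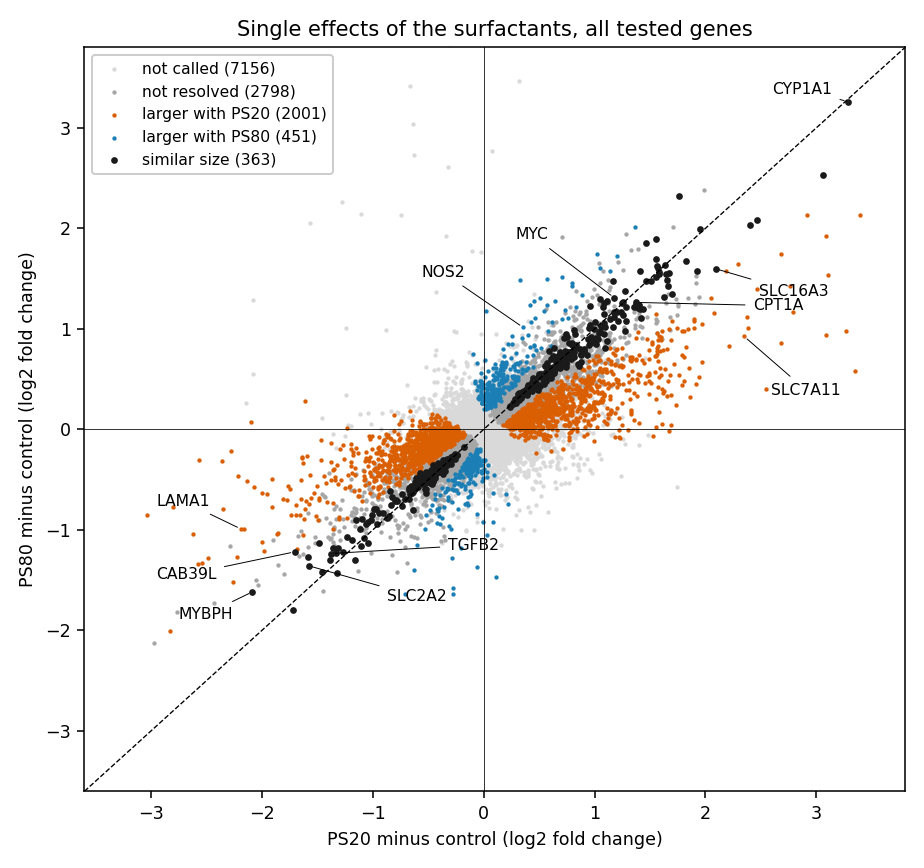
Each point is 1 of the tested genes, with its log2 fold change against control under PS20 on the horizontal axis and under PS80 on the vertical axis. Black points are the 363 genes of similar size, orange points the 2001 with the larger change under PS20, blue points the 451 with the larger change under PS80. Dark grey points were called in the mean but not resolved and light grey points were not called. Both axes share the control libraries, which alone makes points lean along the dashed line of equal change, and 3 genes lie outside the frame.

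The bound works on the size of the change and not on a test of difference. In 15 of the 363 genes (4.13%) PS80 minus PS20 was itself called, 12 of them larger with PS20. The smaller change was a median of 0.923 of the larger, PS20 had the larger value in 231 genes and PS80 in 132. Median log2 changes of the members were 0.75 for the higher and -0.52 for the lower ones, against 0.38 and -0.32 for all genes called in each direction. The similar-size genes therefore include the large changes more often than all called genes, which the bound itself brings about, since it is relative to the change. Of the higher members 149 were over 1.5-fold and 63 over 2-fold, and of the lower ones 56 and 22. The 5 control libraries did not overlap with the 10 exposed ones in 335 members, against 1540 (12.1%) of all tested genes, and nothing is read from this since the same libraries chose the members. The membership moved with the libraries and the model. With replicate number as a block 545 genes met the rule, among them 356 of the 363. Without the 4 PS80 libraries of the other counting version, which leaves 1 PS80 library, 171 genes met it (118 higher and 53 lower), among them 95 of the 363 (26.2%). Without PS80 replicate 1, 262 genes met it (82 lower), among them 226 of the 363 (62.3%). With the block, and in the separate fit without PS80 replicate 1, all 363 were still called in the mean of both surfactants. Nothing is read from this, since mostly the same libraries chose them. A gene could leave the set through a lost call of either surfactant alone or through a wider interval, and which it was remained unchecked.

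Just inside the bound, NAPG, VPS50 and WSB1 had an interval that reached 0.499, 0.498 and 0.498 of their change. NAPG, a factor of membrane fusion, was 0.39 higher with PS20 and 0.36 with PS80. VPS50, a subunit of an endosome tethering complex, was -0.37 and -0.44. UBE2L6, LRP3 and APP stood just outside with 0.5003, 0.5003 and 0.501. UBE2L6 was at 1.39 with PS20 and 0.97 with PS80, so the rule leaves out some genes that rose with both.

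The largest change of similar size was in CYP1A1, the monooxygenase that the aryl hydrocarbon receptor induces. The gene lies at chr15:74719542-74725536 (GRCh38). Its control libraries held 11.1, 9.58, 8.12, 10.8 and 9.15 CPM. PS20 libraries held 115, 169, 73.4, 68.4 and 59.5 CPM, and PS80 libraries 121, 95.6, 94.8, 76 and 86.8 CPM. No exposed library came near a control library, and the spread was wider with PS20 than with PS80. The mean change was 3.27 ± 0.24 log2 (SE), or 9.66-fold, at 3.28 with PS20 and 3.26 with PS80. The interval of PS80 minus PS20 was -0.42 to 0.38. Of the 9 tested genes of its list, 6 rose (66.7%, against 22% of all genes) and 2 fell (22.2%, near the 21.9% of all genes). CYP1B1, another cytochrome of that receptor, was at 0.86 and AHR, the receptor itself, at 0.37, both not resolved between surfactants. NQO1, which the receptor shares with NRF2, was larger with PS20 and SLC7A5, an amino acid carrier, larger with PS80. The SLC7A5 difference was 0.45 with all libraries and 0.31 with the majority counting version alone, where it was not called (adjusted p = 0.192, edgeR's quasi-likelihood test). ALDH3A1, an aldehyde dehydrogenase, fell by 0.47. The list median was 0.22 against 0.01 over all tested genes.

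CPT1A, the carnitine transferase that admits long-chain fatty acids to mitochondria, held 40.5, 37.5, 31.8, 31 and 31.7 CPM in control. It held 104, 80.3, 87.1, 90.2 and 83.4 CPM with PS20 and 75.7, 87.4, 79.9, 78.2 and 88.9 CPM with PS80. Every exposed library stood above every control library, and the change was 1.32 ± 0.08 log2, at 1.37 with PS20 and 1.26 with PS80. SLC27A1, a fatty acid transport protein, was 3.02-fold higher and MGLL, which cleaves monoacylglycerols, 2.5-fold. MGLL held 6 to 7.27 CPM in control against 12 to 21.6 with PS20 and 13.6 to 21.3 with PS80. Of the 19 tested genes of fatty acid oxidation, 5 rose (26.3%, against 22% of all genes) and 4 fell (21.1%, against 21.9%), so the list is near the background. CPT1A was its 1 gene of similar size. ACADVL, the next step for very long chains, was 1.01 higher with PS20 and 0.55 with PS80, and the difference was called (-0.46, adjusted p = 3.75e-05, edgeR's quasi-likelihood test). With the majority counting version alone that difference was -0.24 and was not called (adjusted p = 0.105, the same edgeR test). EHHADH, a peroxisomal bifunctional enzyme, fell by 0.56 and ACAA2, a mitochondrial thiolase, fell by 0.49.

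SLC16A3, a monocarboxylate exporter of glycolytic cells, held 3.55 to 5.36 CPM without treatment, 15.3 to 19.3 after PS20 and 8.64 to 16.4 after PS80. Its 2 effects were 2.09 and 1.60, and PS80 minus PS20 was called at -0.50 (interval -0.78 to -0.21), so it is among the 15 members of similar size that also differ. Of 27 tested glycolysis genes, 7 rose and 7 fell (25.9% each, against 22% and 21.9% of all genes), near the background. CEACAM1, an adhesion receptor of epithelia, was 3.05-fold higher and RAB31, a small GTPase of endosomes, 2.97-fold. EEF1A2, an elongation factor, was 2.92-fold, LRFN4, an adhesion protein, 2.87-fold, and HIP1, a clathrin adaptor that binds actin, 2.81-fold. LRFN4 shares 20.1% of its exonic bases with another gene, which counting without strand cannot separate. PALD1 was at 2.5-fold and NALF2 at 2.46-fold. PS80 minus PS20 was also called in LRFN4 (-0.35) and PALD1 (0.32). In NALF2 the control libraries held 4.55 to 9.65 CPM and the exposed ones 11.9 to 21.6 CPM. All 12 of these highest members separated the exposed from the control libraries, which the rule for naming them required.

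**Figure D2:**
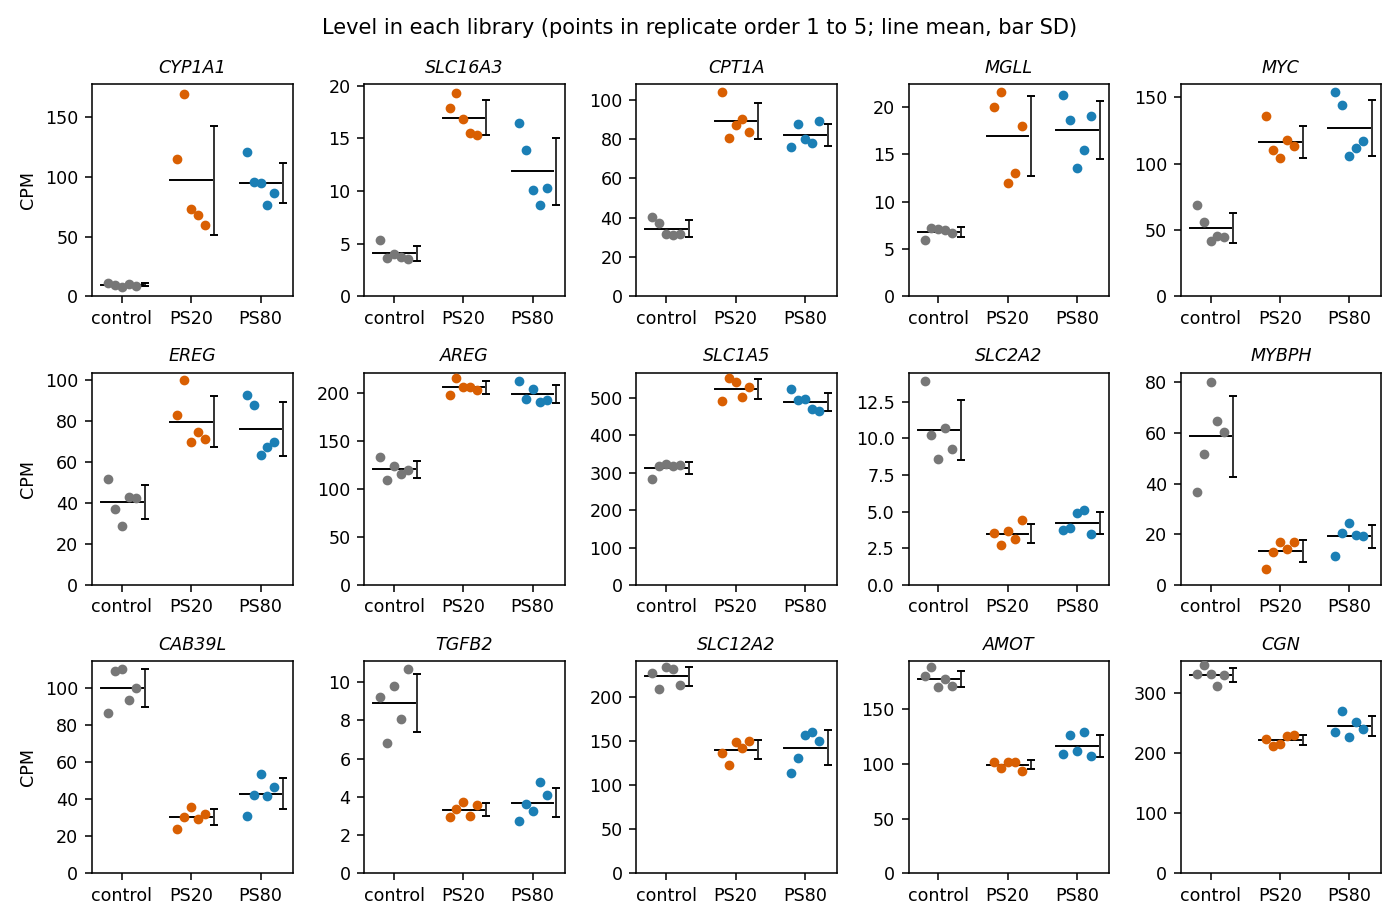
Points are the CPM of each library for 15 members, in replicate order from 1 to 5 within control (grey), PS20 (orange) and PS80 (blue), with the mean as a line and the SD as a bar. In CYP1A1 the control libraries lie between 8.12 and 11.1 CPM and the exposed ones between 59.5 and 169, and in CAB39L the control libraries lie between 86.2 and 110 CPM and the exposed ones between 24 and 53.4.

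Among the lower members, MYBPH, a myosin-binding protein, held 36.7, 51.7, 80, 64.6 and 60.4 CPM in control. It held 6.21, 13, 16.9, 14 and 16.8 CPM with PS20 and 11.6, 20.6, 24.3, 19.7 and 19.4 CPM with PS80. The lowest control library exceeded every exposed one, and the change was -1.85 ± 0.17 log2, or 3.61-fold lower. SLC2A2, the low-affinity glucose transporter GLUT2 of the intestinal and hepatic membrane, held 13.9, 10.2, 8.6, 10.7 and 9.29 CPM in control. With PS20 it held 3.55, 2.7, 3.69, 3.13 and 4.43 CPM and with PS80 3.75, 3.87, 4.92, 5.11 and 3.46 CPM. All exposed libraries lay below all control libraries, at a change of -1.47 ± 0.14. The rule for naming the 12 lowest members, MYBPH and SLC2A2 among them, required this separation, so nothing is read from it. The other 16 tested genes of glucose transport and arrestins held no similar-size gene. TXNIP, which restrains glucose uptake, was -0.71 with PS20 and -1.64 with PS80, and SLC2A1 (GLUT1) was 0.76 and 1.11 higher, both with the larger change under PS80.

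CAB39L, a scaffold of the kinase LKB1, held 86.2, 109, 110, 93.2 and 100 CPM in control, where PS20 gave 24 to 35.6 and PS80 gave 30.9 to 53.4. Its changes were -1.71 and -1.22, and PS80 minus PS20 was called (interval 0.25 to 0.73). FAM13B held 63.7 to 75.6 CPM in control, against 13.8 to 32.3 under PS20 and 16.4 to 38.6 under PS80. TGFB2, a ligand of the TGF-beta receptors, held 6.84 to 10.7 CPM against 2.96 to 3.74 and 2.73 to 4.77, and 34.2% of its exonic bases lie in exons of another gene. APELA, a peptide ligand of the apelin receptor, was 2.37-fold lower. PLXNC1, a semaphorin receptor, was 2.34-fold lower, and TENT5C, a poly(A) polymerase, 2.37-fold lower. BFSP1, MAB21L4, SMLR1 and TCTA were 2.68-, 2.48-, 2.41- and 2.2-fold lower. MAB21L4 held 65.2 CPM in control replicate 1 and 92 to 97.2 in the other control libraries, and 24.3 to 43.6 in the exposed ones.

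**Figure D3:**
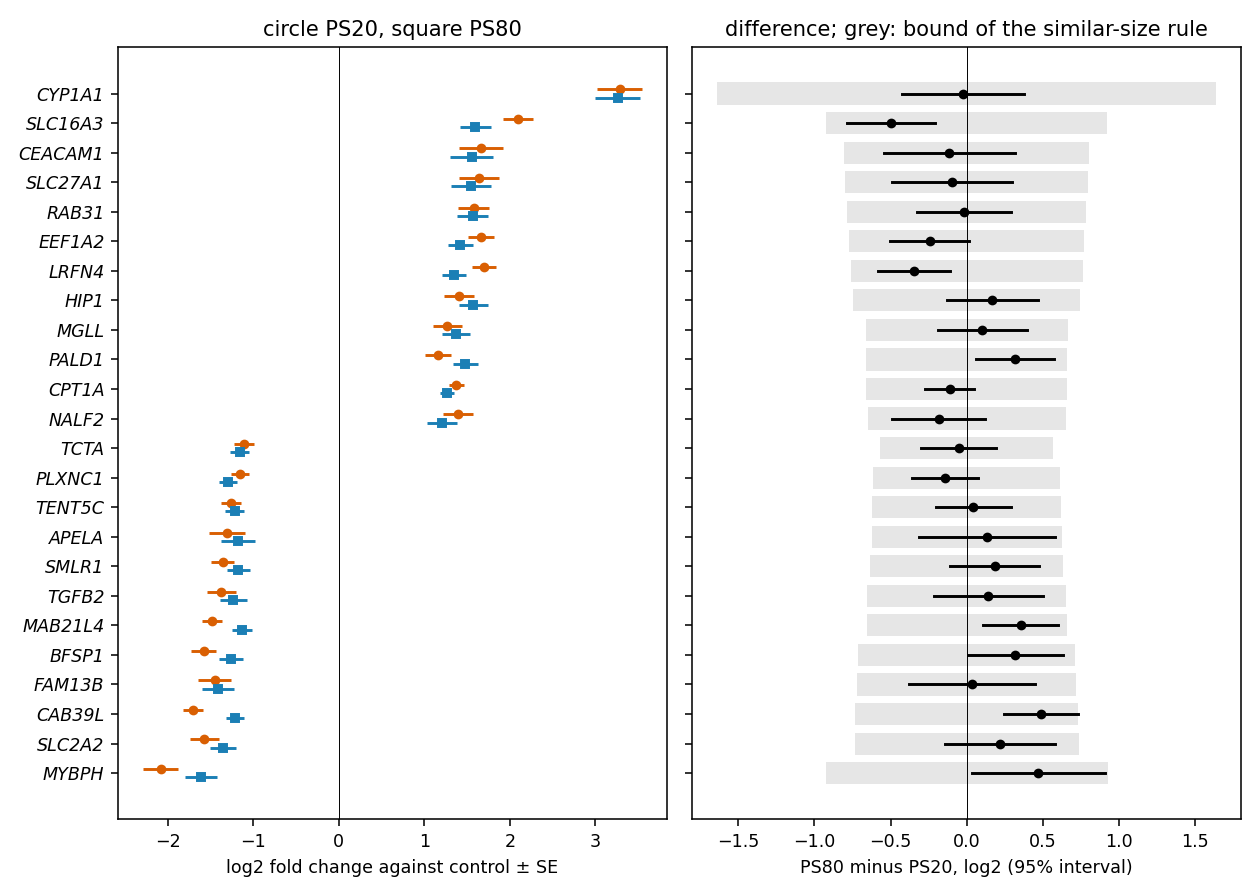
The left panel gives, for the 12 highest and 12 lowest members, the log2 fold change against control with its SE under PS20 (orange circle) and PS80 (blue square). The right panel gives PS80 minus PS20 with its 95% interval, and grey bars show the bound of the rule for that gene. The interval of CYP1A1 (-0.42 to 0.38) is well within its bar, and that of CAB39L (0.25 to 0.73) reaches the edge of its bar and lies wholly above 0.

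The genes of the EGF receptor pathway were next. AREG and EREG, ligands of that receptor, rose to a similar size. AREG held 133, 110, 124, 116 and 120 CPM in control, 198, 216, 207, 207 and 203 with PS20 and 213, 194, 204, 191 and 193 with PS80. The exposed libraries of both groups stood above all controls, and PS80 minus PS20 lay between -0.16 and 0.05. AREG was 1.69-fold and EREG 1.92-fold higher. Of the 10 tested genes of EGF receptor ligands and receptors, 3 rose (30%, against 22% of all genes), none fell and 2 were of similar size (20%, against 2.84%). EGFR itself was not called in the mean (0.06), at -0.15 with PS20 and 0.26 with PS80, and the difference between surfactants was called (adjusted p = 9.52e-05, edgeR's quasi-likelihood test).

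MYC, a transcription factor of growth, held 69, 56.2, 41.8, 45.9 and 44.8 CPM in control, 136, 110, 104, 118 and 113 with PS20 and 154, 144, 106, 112 and 117 with PS80. All control libraries of MYC lay below all exposed ones, and the mean change was 1.24 ± 0.11. MAFF and KLF6, early response transcription factors, were also of similar size, at 0.94 and 0.57. Of the 20 tested genes of the immediate early list 12 rose (60%, against 22% of all genes) and 1 fell (5%, against 21.9%), with a median of 0.39. FOSL1, a partner of JUN, was larger with PS80, at 1.73, and ATF3, an early stress gene, was larger with PS20 (1.33 against 0.68).

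Of the 19 tested genes of ERK feedback, 12 rose in the mean of both surfactants (63.2%, against 22% of all genes) and 1 fell (5.26%, against 21.9%), at a median of 0.34. SPRY1 (1.90-fold), SPRED1 (1.72-fold) and SPRED2 (1.24-fold), which block signalling from the receptor to ERK, were of similar size. SPRY1 held 5.06 to 9.22 CPM without treatment, 11.6 to 15.8 after PS20 and 10.1 to 16 after PS80. The ETS factors ETV4 and ETV5, and the phosphatase DUSP5, were higher with PS80 than with PS20. CCND1, cyclin D1, was 0.14 higher with PS20 and 0.54 with PS80 (adjusted p of the difference = 7.92e-06, edgeR's quasi-likelihood test). In this list 6 genes were larger with PS80, and none of the higher ones was larger with PS20.

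Of the amino acid carriers, SLC1A5 and SLC7A1 were of similar size. SLC1A5, the glutamine carrier, held 284, 318, 324, 318 and 322 CPM in control, 493, 554, 543, 503 and 530 with PS20 and 525, 495, 497, 470 and 465 with PS80. No control library reached an exposed one, at 1.62-fold, though 23.8% of its exonic bases lie in another gene's exons. SLC7A1, the carrier for cationic amino acids, was 1.68-fold higher and PS80 minus PS20 was called (-0.22). The integrated stress response list of 31 genes had 25 higher (80.6%, against 22% of all genes) and 3 lower (9.68%, against 21.9%), and 18 of the higher genes were larger with PS20. SLC7A11, the cystine carrier, was 2.35 higher with PS20 and 0.93 with PS80, and DDIT3, the stress factor CHOP, was 1.69 against 0.34. ATF5, a relative of ATF4, was at 0.22 with PS20 and -0.74 with PS80.

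Of the 19 tested tRNA synthetases 11 rose (57.9%, against 22% of all genes) and none fell (against 21.9%). IARS1, LARS1 and GARS1, which charge the tRNAs of isoleucine, leucine and glycine, were of similar size. IARS1 held 158 to 166 CPM in control, where PS20 gave 225 to 277 and PS80 gave 214 to 253, 1.46-fold higher. LARS1 was 1.23-fold and GARS1 1.3-fold higher. WARS1, for tryptophan, was 0.77 higher with PS20 and 0.08 with PS80, and the difference was called (adjusted p = 2.17e-06, edgeR's quasi-likelihood test). PCK2, the mitochondrial phosphoenolpyruvate carboxykinase, was 2.19-fold higher, at 1.28 with PS20 and 0.98 with PS80, and PS80 minus PS20 was called (-0.29). GOT1 and MTHFD1L, of aspartate and folate metabolism, were further members of similar size that were chosen after their values were seen.

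Ion transport held 4 members among 18 tested genes (22.2%, against 2.84% of all genes), in a list chosen with earlier results known. CA12, a membrane carbonic anhydrase, was low, at 0.716 to 2.14 CPM in control, against 2.76 to 5.03 under PS20 and 4.17 to 8.3 under PS80. Its 2 effects were 1.76 and 2.32, and PS80 minus PS20 was called (0.56). SLC4A7, a sodium bicarbonate cotransporter, was 2.38-fold higher with 7.27 to 16.7 CPM in control and 17 to 35.5 in the exposed libraries. CLCN2, a chloride channel, was at 0.60. SLC12A2, the sodium-potassium-chloride cotransporter that loads chloride for secretion, fell by 0.66, from 209 to 234 CPM in control to 123 to 150 with PS20 and 114 to 160 with PS80. SCNN1A, a subunit of the epithelial sodium channel, was at 1.19 with PS20 and -0.08 with PS80. The difference was called (adjusted p = 2.72e-08, edgeR's quasi-likelihood test).

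Cell contacts moved in both directions. Of 34 tight junction genes, 8 rose and 8 fell, which is 23.5% each against 22% and 21.9% of all genes, so the list is near the background. Of similar size were CGN (cingulin, of the junction plaque), AMOT (angiomotin, of the polarity complex) and YBX3, a junction-linked regulator of transcription. CGN held 313 to 347 CPM without treatment, 213 to 230 after PS20 and 228 to 271 after PS80, and AMOT 170 to 189, 93.2 to 102 and 107 to 129. Both fell, by 0.50 and 0.73, and the difference between surfactants was called in each, with PS20 the larger. YBX3 was 1.55-fold higher. DSG2, a desmosomal cadherin, was 1.53-fold higher, from 101 to 113 CPM to 151 to 175.

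Integrins and focal adhesion also had 8 higher and 8 lower of 22, which is 36.4% each against 22% and 21.9% of all genes. HIP1 and ITGA5, the fibronectin receptor chain, were the members of similar size, and FN1, fibronectin, was 1.39-fold higher, from 4030 to 4630 CPM to 5210 to 7390. ITGA1, a collagen receptor chain, fell by 1.02 with PS20 and 0.27 with PS80. PLAUR, the urokinase receptor, was 3.3-fold higher at low levels, 0.513 to 0.955 CPM in control and 1.44 to 3.44 in the exposed libraries.

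HSPB1, a small heat shock protein, was 1.59-fold higher and 1 of 7 higher genes among the 20 tested of its list (35%, against 22% of all genes). PMAIP1, the BH3-only protein NOXA, was 2.78-fold higher at 0.858 to 1.25 CPM in control and 1.36 to 3.71 in the exposed libraries. TNFAIP2, an NF-kB target, was 1.77-fold higher. CDX2, the intestinal homeobox factor, was 1.3-fold higher, while TNFRSF19, a Wnt-linked receptor, was 1.49-fold lower. ATP6V0D1, of the vacuolar proton pump, and NDUFC2, of respiratory complex I, were 1.24- and 1.33-fold lower. NDUFC2 shares 21% of its exonic bases with another gene.

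Some lists held no gene of similar size, which for lists of these lengths is near the 2.84% of all tested genes. Of 48 ribosomal protein genes 40 rose (83.3%, against 22% of all genes), 36 of them larger with PS20, and none was of similar size. RPL10A was 0.57 higher with PS20 and 0.16 with PS80. Copies of these genes make their counts uncertain. Of 25 cholesterol synthesis genes 13 rose (52%), all 13 larger with PS20, and ACAT2 was 0.77 against -0.10. Of 26 unfolded protein response genes 14 rose (53.8%), 12 larger with PS20, and of 36 DNA replication and mitosis genes 17 fell (47.2%, against 21.9% of all genes), 14 larger with PS20. Of the 757 tested genes in the 36 lists, 37 were of similar size, in 23 of the lists. The other 326 of the 363 stand in none. The lists were chosen with earlier results in view, so the counts are descriptions.

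**Figure D4:**
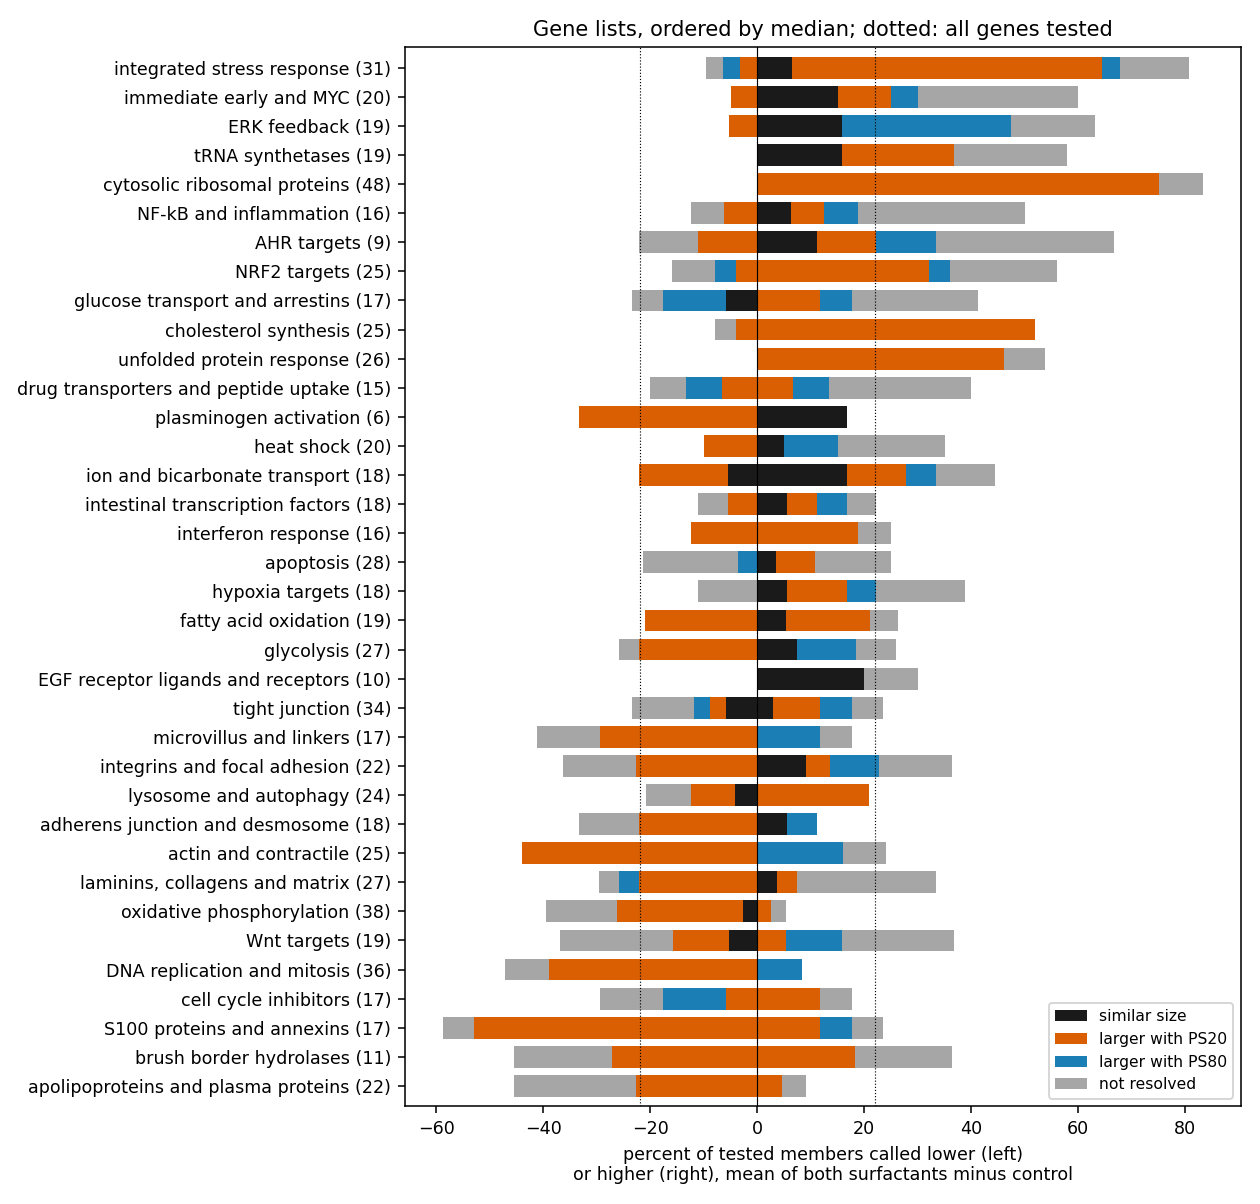
Bars give, for each of 36 gene lists with its number of tested members in brackets, the percent called lower (left) and higher (right) in the mean of both surfactants. Black marks similar size, orange a larger change with PS20, blue a larger change with PS80 and grey not resolved, and dotted lines mark 21.9% and 22% of all tested genes. Ribosomal protein and cholesterol synthesis genes have no black share and ion transport genes have 22.2% in black, against 2.84% of all tested genes.

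Replicates that did not choose the genes gave a separate measurement. The rule was applied to replicates 3 to 5 alone and chose 331 genes, 206 higher and 125 lower. In replicates 1 and 2, 267 of them (80.7%) were called in the same direction, against 23.4% of all 12903 genes tested there in either direction (11.5% higher and 11.8% lower). The chosen higher genes passed in 159 cases (77.2%) and the lower ones in 108 (86.4%). These shares concern the mean change of both surfactants and not its similar size. They were not set beside the share for all 5524 genes called in replicates 3 to 5, so nothing particular to similar size is read from them. None was called in the opposite direction, and 329 kept their sign. The median change was 0.64 in the choosing and 0.59 in the other replicates for higher genes, and -0.47 and -0.55 for lower ones. PS80 minus PS20 was called in 14 of the 331 in replicates 1 and 2 (4.23%), against 10.8% of all genes there.

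The genes named next were picked with all 15 libraries, so their values in replicates 1 and 2 are descriptions and no separate support. CYP1A1 was 3.60 higher in replicates 1 and 2 (adjusted p = 2.06e-08, edgeR's quasi-likelihood test, 2 control and 4 exposed libraries). CPT1A was at 1.16 (adjusted p = 1.18e-05) and MYC at 1.13 (adjusted p = 9.97e-06) by the same edgeR test. SLC2A2 was at -1.78 and FAM13B at -1.94 there, and AREG at 0.76 and SLC12A2 at -0.79. MAFF had an adjusted p of 0.0536 there at 0.60. In the other order, with the 177 genes chosen in replicates 1 and 2, 175 could be tested in replicates 3 to 5 and 166 (94.9%) were called in the same direction, against 43.1% of all genes in either. This order was added after the data were seen.

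**Figure D5:**
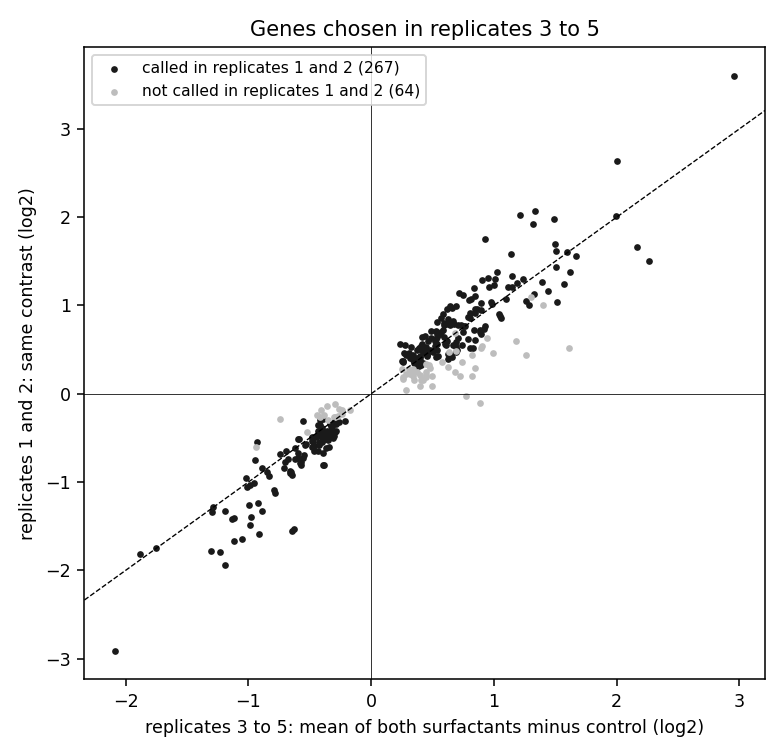
Each point is a gene chosen in replicates 3 to 5, with its mean log2 change of both surfactants minus control in those replicates on the horizontal axis and in replicates 1 and 2 on the vertical axis. Black points (267) were called in replicates 1 and 2 and grey points (64) were not, and 329 of 331 lie in the quadrant of equal sign.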

How the data were processed

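Per the labels' protocols, a poly(A) kit turned column-isolated Caco-2 RNA into the 15 libraries. Each deposited table holds whole-number read counts per gene, made by the authors with featureCounts (version 2.0.0 in 11 libraries and 2.0.3 in PS80 replicates 1, 3, 4 and 5) against GENCODE release 42 with a minimum mapping quality of 10 and no strand option, per the file headers. Trimming with cutadapt, alignment with STAR 2.7.9a to GRCh38 and a test with DESeq2 1.32.0 are named in the submitters' processing notes. Of 69215 genes, 62672 (90.55%) were paired with a symbol, and at most 0.00174% of a library's counts had none. 

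Genes were kept by filterByExpr (minimum count 10, minimum total 15), and normalized by trimmed means of M-values. Groups were compared in R 4.3.3 with edgeR 4.0.16's quasi-likelihood test over all 15 libraries, with Benjamini-Hochberg adjustment over all 12769 genes at 0.05. DESeq2 1.42.0 was an alternative. Levels are CPM. Fitted changes carry standard errors, and intervals are at 95%. Total counts set the precision of low genes: a gene at 1 CPM had 4.18 reads in the shallowest and 42.3 in the deepest library. The scripts were tested on simulated data.

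The text names the 12 highest and 12 lowest similar-size genes (protein-coding, mean of at least 5 CPM, groups separated), for each list up to 3 similar-size members by smallest p, the member of each list with the smallest p for PS80 minus PS20, and the 3 genes nearest to each side of the bound. Other members of the lists are named to describe them. Members and lists were chosen with earlier results of these data known. Alternatives were another normalization, filters, another test, a replicate block, other bounds, parts of the replicates and leaving out each library. Correlations across genes between libraries of the same replicate number were -0.0264 to 0.248 for control and PS20. They were 0.102 to 0.304 for control and PS80 and 0.0741 to 0.29 for PS20 and PS80. Most were weakly positive, but a library did not match its own number best in every pair. The numbers were therefore not taken as pairs in the main model, and a replicate block was an alternative. Promoter sequences and motifs came from RefSeq windows of GRCh38.p14.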

Additional observations from a re-analysis of the deposited data

Results flagged for a closer look

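In 282 sets of 5 libraries (94 named genes in 3 groups), 23 had a library far from the other 4, the gap to its neighbour being more than 0.71 of the whole range. Chance gives about 1 in 20. Of these, 14 fell on a replicate 1, with 6 in control, 2 in PS20 and 6 in PS80.

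Control replicate 1 stood high in SLC16A3 (5.36 CPM), CEACAM1 (7.72 CPM) and CA12 (2.14 CPM). It stood low in MAB21L4 (65.2 CPM), SLC1A5 (284 CPM) and HYOU1 (407 CPM). Control replicate 2 was high in HIP1 (11.1 CPM).

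PS80 replicate 1 was high in CEACAM1 (17.1 CPM), RAB31 (36 CPM), PALD1 (11.8 CPM), SLC7A1 (283 CPM) and LARS1 (283 CPM), and low in MAB21L4 (31.2 CPM). PS80 replicate 2 was low in HSPE1 (104 CPM) and high in P4HA2 (88.5 CPM), and replicate 4 was high in LCT (7.5 CPM).

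PS20 replicate 1 was high in NALF2 (21.6 CPM) and low in LAMA1 (39.6 CPM). PS20 replicate 2 was high in MAGI2 (4.32 CPM), BMF (109 CPM) and RPL10A (994 CPM). PS20 replicate 3 was low in SPRED2 (119 CPM), and replicate 5 was low in KLF6 (69.2 CPM).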

How the results depend on the processing

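With the replicate number as a block, which was tried although the numbers did not pair all groups, 6342 genes were called in the mean of both surfactants, and the similar-size genes numbered 545 (215 lower). In replicates 1 and 2 alone, 3015 genes were called (1490 higher, 1525 lower), 1397 differed between surfactants and 177 were of similar size (131 higher, 46 lower). With the majority counting version alone, which leaves PS80 with 1 library assumed to vary like the others, 2351 genes differed between surfactants and 171 were of similar size (118 higher, 53 lower). Against a 1.2-fold change (edgeR's glmTreat), 1771 genes were called (976 higher, 795 lower). A bound of 0.333 of the change gave 66 similar-size genes (50 higher, 16 lower) and one of 0.667 gave 906 (526 and 380). A ratio of at least 0.67 with no interval gave 1677 (892 and 785).

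Leaving out 1 library at a time gave 4862 to 5579 called genes, 3840 to 4694 that differed between surfactants and 262 to 396 of similar size, of which 82 (without PS80 replicate 1) to 158 were lower. All 363 members stayed called in each of these 15 fits, but 226 to 338 of them met the similar-size rule there. In replicates 1 and 2 alone 343 stayed called and 112 (30.9%) met the rule, and in replicates 3 to 5 alone 180 (49.6%) did. DESeq2 size factors gave 5584 called genes and 368 of similar size, and the DESeq2 Wald test 5517 and 338. With no filter on low counts 405 were of similar size, of which 275 were shared with the 363. The share of held-out genes called was 80.3% to 84.1% with other normalization, filters or test, settings added after the data were seen. Among 61 named genes called in the mean, 1 call was lost (MAFF, adjusted p = 0.0536 by edgeR, replicates 1 and 2 alone) and none reversed. Of 33 differences between surfactants, SLC7A5 (0.31, adjusted p = 0.192), HSPE1 (0.27, 0.0737), P4HA2 (-0.21, 0.21), ACADVL (-0.24, 0.105) and OAS1 (-0.46, 0.0605) were not called by edgeR with the majority counting version alone, and OAS1 (-0.51, 0.0827) also not in replicates 1 and 2 alone. List medians moved in 68 of 864 values. Depth limits members under 5 CPM, and the similar-size rule favours genes with narrow intervals.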

Other observations

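Lists chosen after their values were seen, and so given as descriptions only, showed members of similar size outside the groups above. One list joined the vesicle adaptor complexes and the retromer, which sort cargo at endosomes and the Golgi, with tethering subunits such as VPS50. Of its 35 tested genes, 19 fell (54.3%, against 21.9% of all genes) and 4 rose (11.4%, against 22%). Of the lower ones 6 were of similar size (17.1% of those tested, against 2.84% of all genes), among them VPS50. VPS35, the retromer core, was at -0.46 with PS20 and -0.35 with PS80, and AP2M1, the cargo-binding chain of the endocytic adaptor, at -0.38 and -0.35. AP3M1 was at -0.33 and -0.31, AP1G1 at -0.18 with each, and AP5S1 at -0.71 and -0.70. The list median was -0.17.

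Of 15 tested members of the TNF receptor superfamily, 8 rose (53.3%, against 22% of all genes) and 1 fell (6.67%, against 21.9%). TNFRSF1B, the second TNF receptor, was 1.05 higher with PS20 and 1.30 with PS80, TNFRSF12A, the receptor of TWEAK, 0.77 and 0.86, and TNFRSF21, a death-domain receptor, 0.66 and 0.70. TNFRSF19, the 1 that fell, was also of similar size (-0.62 and -0.53). NGFR, at a mean of 0.208 CPM in control, was 5.95 higher with PS20 and 2.99 with PS80. NGFR and TNFRSF10B (0.63 and 0.38) were larger with PS20. A mixed list of lipid enzymes, mostly hydrolases of several lipid classes, had 24 tested genes. Of these, 7 rose (29.2%) and 5 fell (20.8%), near the 22% and 21.9% of all genes. In both directions together, 7 were of similar size (29.2%, against 2.84% of all genes). SMPD1, the acid sphingomyelinase, was at -1.06 with PS20 and -0.94 with PS80, ABHD4 at -0.68 and -0.69, and DGAT1, which makes triacylglycerols, at 0.36 and 0.35.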
